A study of Drosophila melanogaster with 16 samples.

Results

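Cells purified from control Drosophila embryos at stage 11 were compared with whole control embryos, to ask which transcripts were higher or lower in the purified cells. The arrays were chosen by their titles: sorted control 1 to 4 against whole control 1, 2 and 4, which makes 7 of the 16 arrays deposited. The sorted samples were labelled as neuroectodermal cells. Per the labels, these cells carried mCD8-GFP, a membrane-bound fluorescent protein, in wild-type embryos. The embryos were dissociated and the marked cells were collected with magnetic beads against mCD8. Neither the promoter that drove mCD8-GFP nor the purity of the cells was given in the sources used here, and no label described the whole embryos as dissociated, so selection and handling cannot be told apart. The other 2 groups, titled scagcm, came from embryos in which glide/gcm was overexpressed, and were processed as sorted cells (3 distinct arrays) and as whole embryos (4 arrays). They serve here only for comparison. The array titled sorted scagcm3 held the same values as sorted scagcm2 and was counted once, which leaves 15 distinct arrays. Nothing in the labels stated that arrays of a group came from separate collections, so the p-values reflect the variation among the arrays, which may be technical.

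At stage 11 the ventral ectoderm of the fly embryo is producing neuroblasts, the stem cells of the central nervous system. Groups of ectodermal cells gain the potential to become neuroblasts through proneural transcription factors. Notch signalling, through the Enhancer of split genes, holds back the neighbours of each chosen cell. Neuroblasts then divide asymmetrically to give neurons and glia, and gcm and its target repo are known for switching newborn cells to the glial fate.

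The array labelled whole control 3 went against its label and was left out of the main comparison. Over all probe sets its correlation with the 4 sorted control arrays was 0.919 to 0.944, against 0.653 to 0.720 with the other whole control arrays. The other whole control arrays correlated with each other at 0.952 to 0.976, and the sorted control arrays with each other at 0.907 to 0.956. On a scale fitted over all 15 arrays, gcm stood at 13.10 on the array labelled whole control 3, within the 13.01 to 13.13 of the sorted gcm arrays and above the 11.25 to 12.07 of the sorted control arrays. The level of repo was 10.77 there, within the 10.67 to 11.27 of the sorted gcm arrays. RpL29 was at 4.23 there, like the sorted arrays (4.18 to 4.42) and unlike every other whole-embryo array (12.19 to 12.50).

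**Figure D1:**
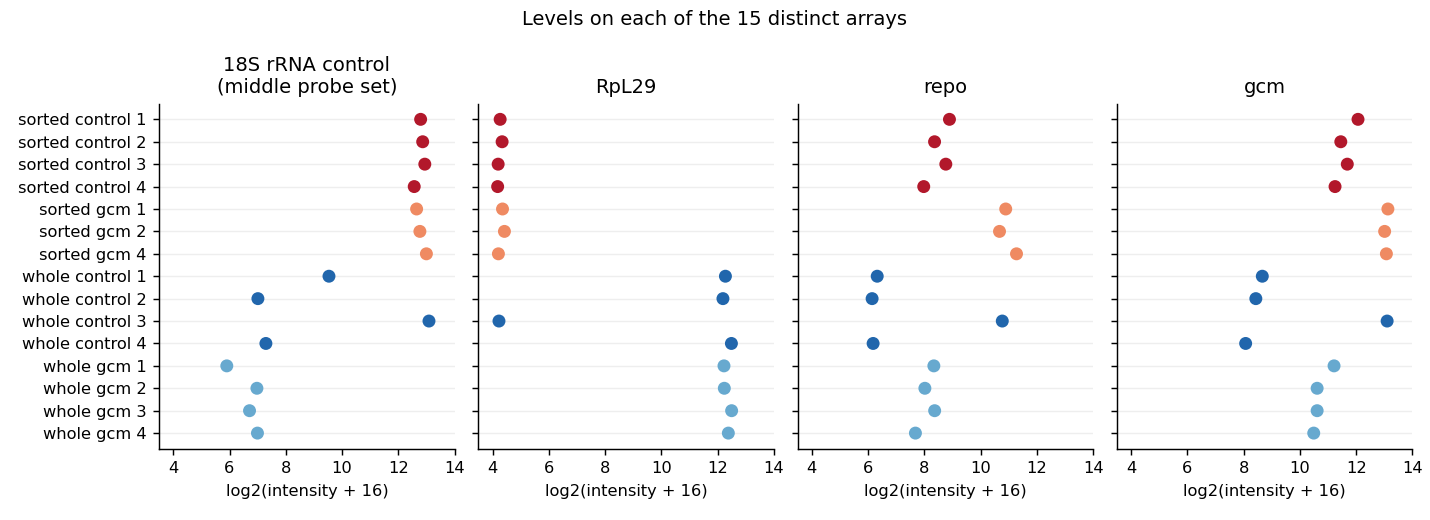
Level, as log2(intensity + 16), of an 18S rRNA control probe set, RpL29, repo and gcm on each of the 15 distinct arrays (rows); dark red sorted control, light red sorted gcm, dark blue whole control, light blue whole gcm. The array labelled whole control 3 sits with the sorted arrays in every panel, at 13.10 for gcm.

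The arrays of sorted cells and of whole embryos differed throughout the genome. Of 13966 probe sets, 6478 (46.4%) were called different at an adjusted p under 0.05 (limma, Benjamini-Hochberg), 3483 (24.9%) higher and 2995 (21.4%) lower in the sorted cells. A difference of more than 2-fold was called for 2145 probe sets in the higher and 2039 in the lower direction. Above 8-fold the directions were unequal, with 82 probe sets higher and 323 lower. Counted without a model, all sorted arrays exceeded all whole arrays for 24.6% of probe sets and fell below them for 22.6%. The first principal component of the 14 arrays in the fit held 74.8% of the variance and separated sorted from whole. With the array labelled whole control 3 included, 3647 probe sets (26.1%) were called, 1786 (12.8%) higher and 1861 (13.3%) lower. The split between directions depended on the scaling: on the deposited values without quantile normalisation 6080 probe sets were called, of which 29.2% were higher, against 53.8% with it. The median change over all probe sets was -0.16 on the deposited values and 0.07 after quantile normalisation. Of the 141 called genes named here, 25 were not called with the array labelled whole control 3 included and 23 were not called on the deposited values. A level below is log2(quantile-normalised intensity + 16), and a change is sorted minus whole on that log2 scale, which understates changes of dim probe sets. Array levels are given in the order sorted control 1, 2, 3, 4 and then whole control 1, 2, 4.

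**Figure D2:**
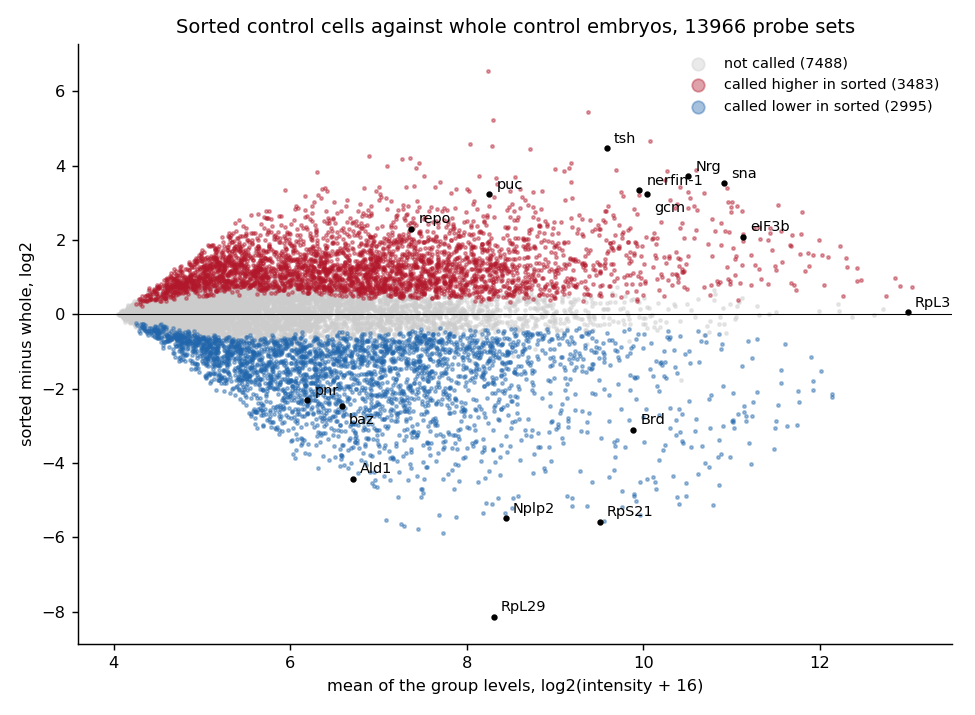
Change (sorted minus whole, log2) against the mean level of the 2 groups for each of 13966 probe sets; red called higher (3483), blue called lower (2995), grey not called. Named genes are marked; RpL29 lies farthest below, at -8.13.

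Several measures of the RNA moved with the groups, and their part in the results was not tested. The control probe set for the middle of 18S rRNA, an RNA that normally lacks a poly(A) tail, had a mean level of 12.79 ± 0.16 (SD, n = 4) in the sorted and 7.95 ± 1.38 (SD, n = 3) in the whole control arrays. The deposited intensities behind it averaged 7100 and 326. The actin probe sets gave a 3′ minus 5′ difference of 1.63 in the sorted and 0.91 in the whole arrays (log2), with no overlap, while eIF4a gave 1.04 and 1.12. For 4 against 3 arrays the exact permutation test, two-sided, cannot go below 0.0571, and 18S rRNA and actin both reached that value. The bacterial and phage spike controls differed little between the groups (BioB 6.98 and 7.07, CreX 12.17 and 12.24).

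More genes of neuroblasts, newborn neurons and glia rose than fell in the sorted cells. Of 22 neuroblast genes 12 rose and 5 fell, of 23 newborn neuron genes 11 rose and 1 fell, and of 17 glial genes 11 rose and 2 fell. The background over 10844 genes, each counted by 1 probe set, was 24.9% higher and 23.2% lower, and every list count below is to be read beside it. The median changes of these lists were 0.77, 0.47 and 0.97, against 0.06 for all genes. On the deposited values they were 0.13, 0.19 and 0.37, against -0.19 for all genes. On the mean over the probe sets of a gene they were 0.68, 0.18 and 0.97. The genes of these lists were long, with median lengths of 7363.5, 23277 and 7366 bases, against 2385 for all genes. Relative to genes of the same class of length and level, a scale chosen after seeing the data, the list medians were -0.11, 0.12 and -0.05. These are close to the 0 of all genes. Because these are bulk samples, fewer cells of a type and less RNA per cell cannot be told apart.

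The gliogenic factor gcm had levels of 12.12, 11.50, 11.73 and 11.29 on the sorted arrays and 8.69, 8.46 and 8.10 on the whole arrays. All sorted arrays were above all whole arrays, and the change was 3.24 ± 0.22 (SE), or 9.47-fold (adjusted p = 8.2e-09, limma). Its target repo, the transcription factor of lateral glia, rose by 2.30 ± 0.23, from a mean of 6.22 to 8.53 (adjusted p = 4.3e-07, limma). The neighbouring paralog gcm2 rose by 0.82. With the array labelled whole control 3 included, none of the 3 genes was called: the changes were 2.05 for gcm (adjusted p = 0.063, limma), 1.15 for repo (0.27) and 0.53 for gcm2 (0.15). That array stood above all sorted control arrays for gcm (13.10) and repo (10.77). Counting it as a whole embryo could therefore only lower the changes of gcm and repo. On the deposited values gcm2 was not called either (0.22, adjusted p = 0.49, limma).

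Among the neuroblast genes the Snail family stood highest. The zinc finger repressor sna read 12.74, 12.64, 12.65 and 12.69 in the sorted cells and 9.37, 9.15 and 8.94 in whole embryos. Its groups lay far apart with a spread of only 0.05 (SD) among the sorted arrays, and the change was 3.53 ± 0.17 (adjusted p = 2.5e-10, limma). Its relative wor, which helps to keep neuroblasts dividing, rose by 2.82. The Sox factor D (Dichaete) rose by 2.05, and pros, the homeodomain protein handed to the daughter cell at division, by 2.41. Factors of the temporal series that marks successive neuroblast ages divided. Of these hb rose by 1.39, svp by 1.96, nub by 1.85 and pdm2 by 0.56, Kr (-0.04) and cas (-0.89) were not called, and grh fell. The rise of pdm2 was called at an adjusted p of 0.0497 (limma) and lost its call in 15 of the alternatives, with a change of -0.056 on the deposited values. The change of cas was called lower on the deposited values (-1.43, adjusted p = 0.013, limma), with array weights and without whole control 4. The bHLH-O repressor dpn rose by 1.09. The call of D was lost with the array labelled whole control 3 (adjusted p = 0.068, limma) and that of dpn on the deposited values (0.15).

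Several members of the neuroblast list, cortical proteins among them, were lower. The apical scaffold baz read 5.15, 5.78, 5.49 and 4.97 in the sorted cells against 8.03, 8.08 and 7.35 in whole embryos, without overlap, a fall of -2.47 ± 0.25 (adjusted p = 5.8e-07, limma). The cell fate determinant numb changed by -1.01, the late temporal factor grh by -1.47 and the Sox factor SoxN by -1.23. For mira, the adaptor that carries pros, the sorted arrays disagreed among themselves: 6.17, 8.54, 5.95 and 10.26 against 10.22, 10.09 and 9.64. The groups overlapped, its change of -2.25 was called with an adjusted p of 0.017 (limma), and the call was lost without sorted control 1 (adjusted p = 0.058), without sorted control 3 (0.051), without whole control 1 (0.054) and with the 7 arrays normalised alone (0.067). With the array labelled whole control 3, neither mira (adjusted p = 0.50, limma) nor grh (0.15) was called. In the gcm arrays mira changed by -0.01.

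**Figure D3:**
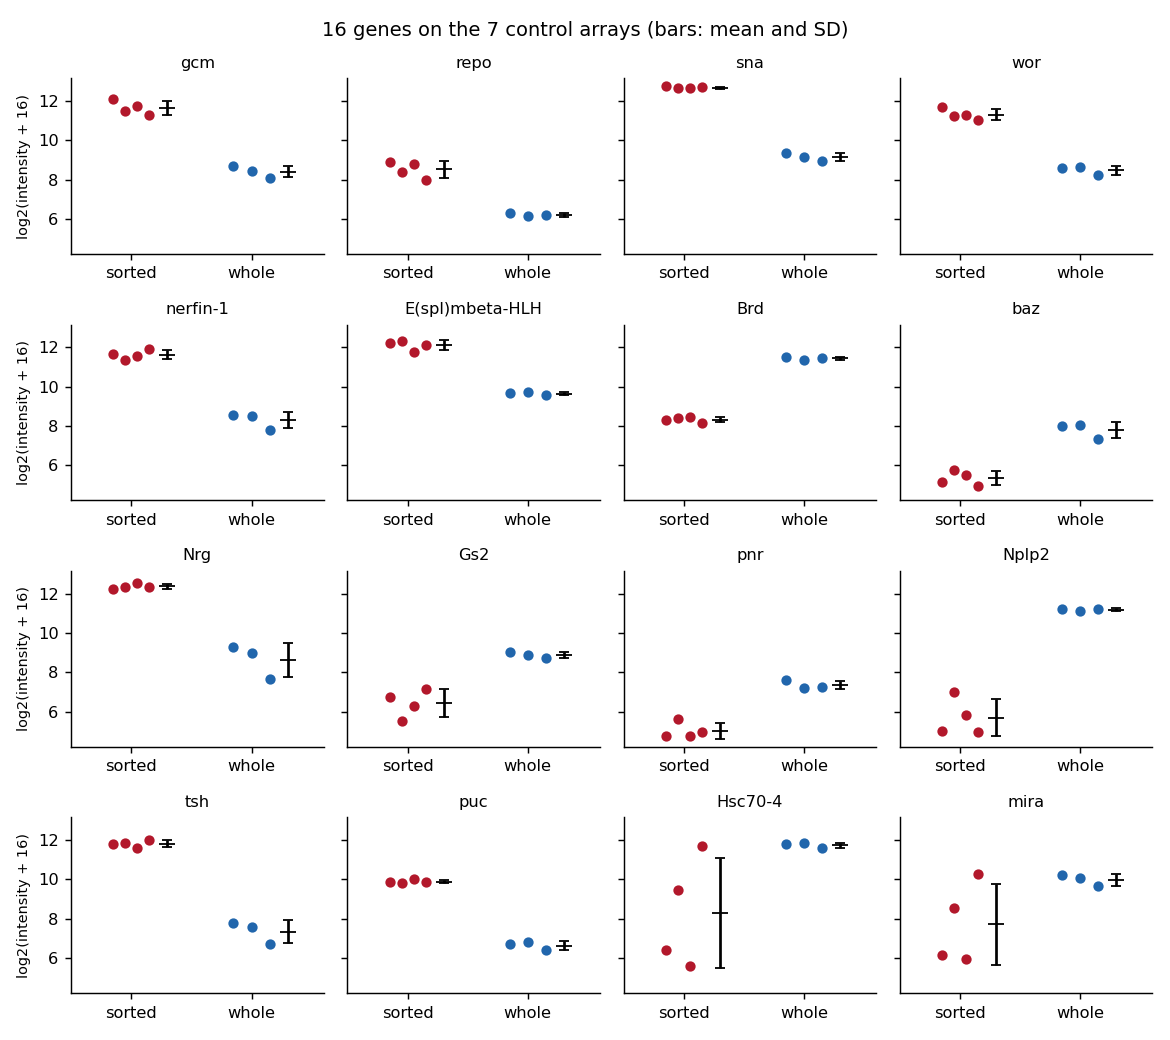
Levels, log2(intensity + 16), of 16 genes on the 4 sorted (red) and 3 whole (blue) control arrays; horizontal ticks and bars give the mean and SD. The groups stand apart for most genes, whereas Hsc70-4 spans 5.61 to 11.69 and mira 5.95 to 10.26 among the sorted arrays.

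The proneural genes showed no common direction. Of 12 measured, 2 rose and 3 fell, with a median change of -0.06 (-0.53 on the deposited values). The neuroblast-specific member ase rose by 1.10 (from 7.30 to 8.41), and by 0.43 on the deposited values, where it was not called. Of the earlier-acting members of the same complex, sc rose by 0.62 (adjusted p = 0.024, limma), a call lost with the array labelled whole control 3 (0.47), without sorted control 4 (0.070) and without whole control 2 (0.14), and it was not called with equal medians or on the deposited values, where its change was -0.09. The other two were lower: l(1)sc read 6.70, 6.15, 6.77 and 6.56 in the sorted cells and 8.78, 8.45 and 8.60 in whole embryos, a change of -2.07 ± 0.27 (adjusted p = 9.1e-06, limma), and ac changed by -1.57. The groups did not overlap for any of these 4 genes.

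Most targets of Notch signalling were higher in the sorted cells. Of 12 Enhancer of split and Bearded family genes 8 rose and 3 fell, with a median of 1.08 (0.18 on the deposited values). The bHLH repressor E(spl)mbeta-HLH read 12.24, 12.32, 11.75 and 12.14 in the sorted cells and 9.66, 9.73 and 9.56 in whole embryos. Its sorted arrays all lay above the whole arrays, with a change of 2.46 ± 0.29 (adjusted p = 3.1e-06, limma). E(spl)m3-HLH rose by 2.33, E(spl)m5-HLH by 1.51 and E(spl)mdelta-HLH by 1.11. Of the Bearded type members, small proteins of which several inhibit the E3 ligase Neuralized, E(spl)m6-BFM rose by 2.07 and E(spl)m4-BFM by 1.57. On the deposited values the changes of E(spl)mdelta-HLH and E(spl)m4-BFM were 0.43 and 0.42 and were not called, and the former was also not called with the array labelled whole control 3 (adjusted p = 0.052, limma).

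The Bearded genes outside that complex divided. Brd read 8.30, 8.42, 8.47 and 8.14 in the sorted cells against 11.50, 11.35 and 11.47 in whole embryos, with no overlap and a change of -3.11 ± 0.23 (adjusted p = 1.8e-08, limma). Tom changed by -1.40, and Ocho by 1.06 (-0.05 on the deposited values, and not called there or with equal medians). Of 8 core components of the Notch pathway 5 rose by their brightest probe set, gro among them, and 3 were not called. The others included the nuclear coactivator mam (1.52), the repressor H (1.65) and the glycosyltransferase fng (1.22), of which mam and fng were not called on the deposited values (0.52 and 0.55). Dimmer probe sets of mam (-0.37) and H (0.20) were not called. For gro, the corepressor of the Enhancer of split proteins, 2 probe sets disagreed: one rose from 8.85 to 10.80 and the other changed from 8.61 to 5.61, a change of -3.0, both called. The direction of gro is therefore not settled by these arrays.

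Some genes of postmitotic neurons were among those with larger changes. Of the 23 newborn neuron genes 11 were not called, and the list median was 0.47. The 1 member called lower changed by -0.71 (adjusted p = 0.028, limma). The zinc finger factor nerfin-1, expressed in nascent neurons, read 11.67, 11.35, 11.56 and 11.92 in the sorted cells and 8.56, 8.50 and 7.82 in whole embryos. No array overlapped, and it rose by 3.33 ± 0.24, or 10.1-fold (adjusted p = 1.6e-08, limma). The neuronal RNA-binding proteins fne and elav rose by 3.45 and 2.77, the motor neuron and mesodermal factor zfh1 by 3.07 and the adhesion protein Nrt by 1.62 (0.38 and not called on the deposited values). A dimmer probe set of Nrt changed by -0.37 and was not called. Genes used at synapses divided. The active zone gene brp rose by 2.06 from a mean of 4.85, while nSyb (0.28), Gad1 (-0.08) and VGlut (-0.45) were not called. Dimmer probe sets of brp, at 0.08 and 0.59, were not called either. The brighter of 2 probe sets of ChAT, which makes acetylcholine, rose by 0.96 and the other changed by -0.60, both called, so its direction is not settled. The rise of ChAT was not called on the deposited values (0.43), with the array labelled whole control 3 (adjusted p = 0.13, limma) or without whole control 1 (0.057).

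Of 17 axon guidance genes 9 rose and 1 fell. The Wnt5 receptor drl went from 8.90 to 11.87, a rise of 2.97. The gene trio, which acts in axon growth, rose by 2.26, the guidance cue NetB by 1.81 and the receptor phosphatase Ptp69D by 1.76. The member called lower was sli, the midline repellent, at -1.0, and its call was lost without sorted control 1 (adjusted p = 0.065, limma), without whole control 2 (0.13) and with the array labelled whole control 3 (0.069).

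In the glial list the adhesion molecule Nrg, a septate junction protein also made by neurons, read 12.22, 12.35, 12.56 and 12.35 in the sorted cells and 9.32, 8.97 and 7.67 in whole embryos. Its groups stood apart and it rose by 3.72 ± 0.33, or 13.2-fold (adjusted p = 1.3e-07, limma). The blood-brain barrier receptor moody rose by 2.03 and the ion pump subunit nrv2 by 1.52. The FGF receptor htl, which is also in the mesodermal list, rose by 1.86. Gs2, the glutamine synthetase found in glia of later stages, was lower in the sorted cells: 6.77, 5.55, 6.28 and 7.18 against 9.02, 8.89 and 8.71, a change of -2.43. Of 10 midline genes 4 rose and 2 fell, where 24.9% of all genes rose and 23.2% fell. The midline glia gene wrapper rose by 1.42, and the homeobox gene oc changed by -1.61. The calls of moody (adjusted p = 0.22, limma), htl (0.081) and oc (0.075) were lost with the array labelled whole control 3. The median of the midline list was 0.53, and -0.01 on the deposited values. Relative to genes of the same class of length and level it was -0.64.

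Of the 6 columnar genes measured, which divide the neuroectoderm from ventral to dorsal, 3 rose and 1 fell. The markers of the intermediate and dorsal columns, ind and Dr, had changes of -0.38 and 0.22 and were not called. Egfr, the receptor that patterns these columns, rose by 1.13 (0.51 and not called on the deposited values). The change of Dr was -0.40 on the deposited values.

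Markers of other embryonic cell types were tested in the same way, and their lists did not share a direction. List medians ran from -0.53 for germ cell and maternal genes to 0.94 for trachea, against 0.06 for all genes. Of 12 tracheal genes 6 rose and 2 fell, with a median of 0.94 (0.50 on the deposited values). The nuclear receptor kni, which is used in the trachea and elsewhere, read 10.70, 10.80, 10.82 and 10.72 against 7.54, 7.98 and 7.38. Its arrays did not overlap and it rose by 3.13 ± 0.18 (adjusted p = 1.2e-09, limma). The POU factor vvl, which acts in trachea and in neurons, rose by 2.66 and the FGF receptor btl by 1.21 (0.53 and not called on the deposited values). Of 21 mesodermal and muscle genes 10 rose and 4 fell. The genes of lowest p in that list were htl (1.86), counted in the glial list as well, and zfh1 (3.07), both named above. Also within that list lmd, a myoblast factor, rose by 1.10 and the muscle ubiquitin ligase mib2 by 1.20. The integrin subunit mys changed by -1.35 and the tropomyosin Tm2 by -1.31. On the deposited values neither lmd (0.49) nor mib2 (0.57) was called, and mib2 was not called with the array labelled whole control 3 (adjusted p = 0.051, limma). The mesodermal median was 0.35, and -0.10 on the deposited values.

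Genes of the dorsal side and of the epithelium moved in both directions, with shares called lower no higher than that of all genes. The GATA factor pnr, which defines the dorsal ectoderm, read 4.78, 5.64, 4.79 and 4.97 against 7.60, 7.20 and 7.26 in whole embryos. It was separated in all arrays, with a change of -2.31 ± 0.26 (adjusted p = 2.1e-06, limma). The peptidase Ance, a marker of the amnioserosa, changed by -1.86. Of the 14 genes of this list 4 rose and 3 fell, with a median of -0.32 (-0.83 on the deposited values). The rising members egr (2.14), peb (2.05) and kay (1.85) encode a TNF ligand, a zinc finger factor and the Fos protein. E-cadherin, encoded by shg, changed by -2.75 among 16 epidermal and cuticle genes of which 5 rose and 2 fell. The chitin deacetylase serp rose by 2.65 and the apical determinant crb by 1.55 (0.93 and not called on the deposited values).

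Blood cell genes were called in shares near those of all genes (24.9% higher and 23.2% lower), with 5 of 17 higher and 4 lower. The secreted peptide gene Nplp2 read 5.01, 6.99, 5.82 and 4.96 in the sorted cells and 11.24, 11.12 and 11.21 in whole embryos. The groups were far apart and the change was -5.49 ± 0.35, a 45.0-fold difference (adjusted p = 4.8e-09, limma). The scavenger receptor crq, a macrophage marker, changed by -1.71. The collagen IV gene Col4a1 read 7.85, 10.89, 7.62 and 9.02 against 6.87, 6.06 and 6.59 and rose by 2.34. Its partner vkg was likewise highest on sorted control 2, at 9.87 against 4.94 to 6.70 on the other sorted arrays. The call of vkg, at a change of 2.22, was lost without whole control 2 (adjusted p = 0.061, limma), without whole control 4 (0.075), with the array labelled whole control 3 (0.059), with the 7 arrays normalised alone (0.079) and with a pseudocount of 64 (0.054). The hemocyte median was 0.33, and -0.29 on the deposited values.

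Among the remaining tissues, the lipoprotein gene apolpp, active in fat body, changed by -2.90 and the gut regulator drm by -2.78, while bowl, which acts with drm, rose by 2.02. Of 12 endoderm and yolk genes 3 rose and 2 fell (median 0.20, and -0.24 on the deposited values), and of 10 salivary gland genes 3 rose and 1 fell (0.34, and -0.32 on the deposited values). Of 8 fat body genes 2 rose and 1 fell, and of 8 Malpighian tubule and hindgut genes 3 rose and 1 fell, with medians of -0.12 and -0.03 (-0.35 and -0.64 on the deposited values). Germ cell and maternal genes gave 5 higher and 6 lower of 24, with a median of -0.53 (-0.81 on the deposited values). Over all genes 24.9% were called higher and 23.2% lower. The germ plasm component tud went from 6.84 to 10.15, a rise of 3.31. The maternal transcripts bcd and tor changed by -1.37 and -1.31 and had mean levels of 4.50 and 4.36 in the sorted cells, and tor was not called with the array labelled whole control 3 (adjusted p = 0.064, limma). Levels of vas and pgc, markers of the germ line, were at 4.54 and 5.80 in the sorted cells and 5.08 and 6.07 in whole embryos, and were not called. On the deposited values both were called lower, at -0.67 and -0.74.

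**Figure D4:**
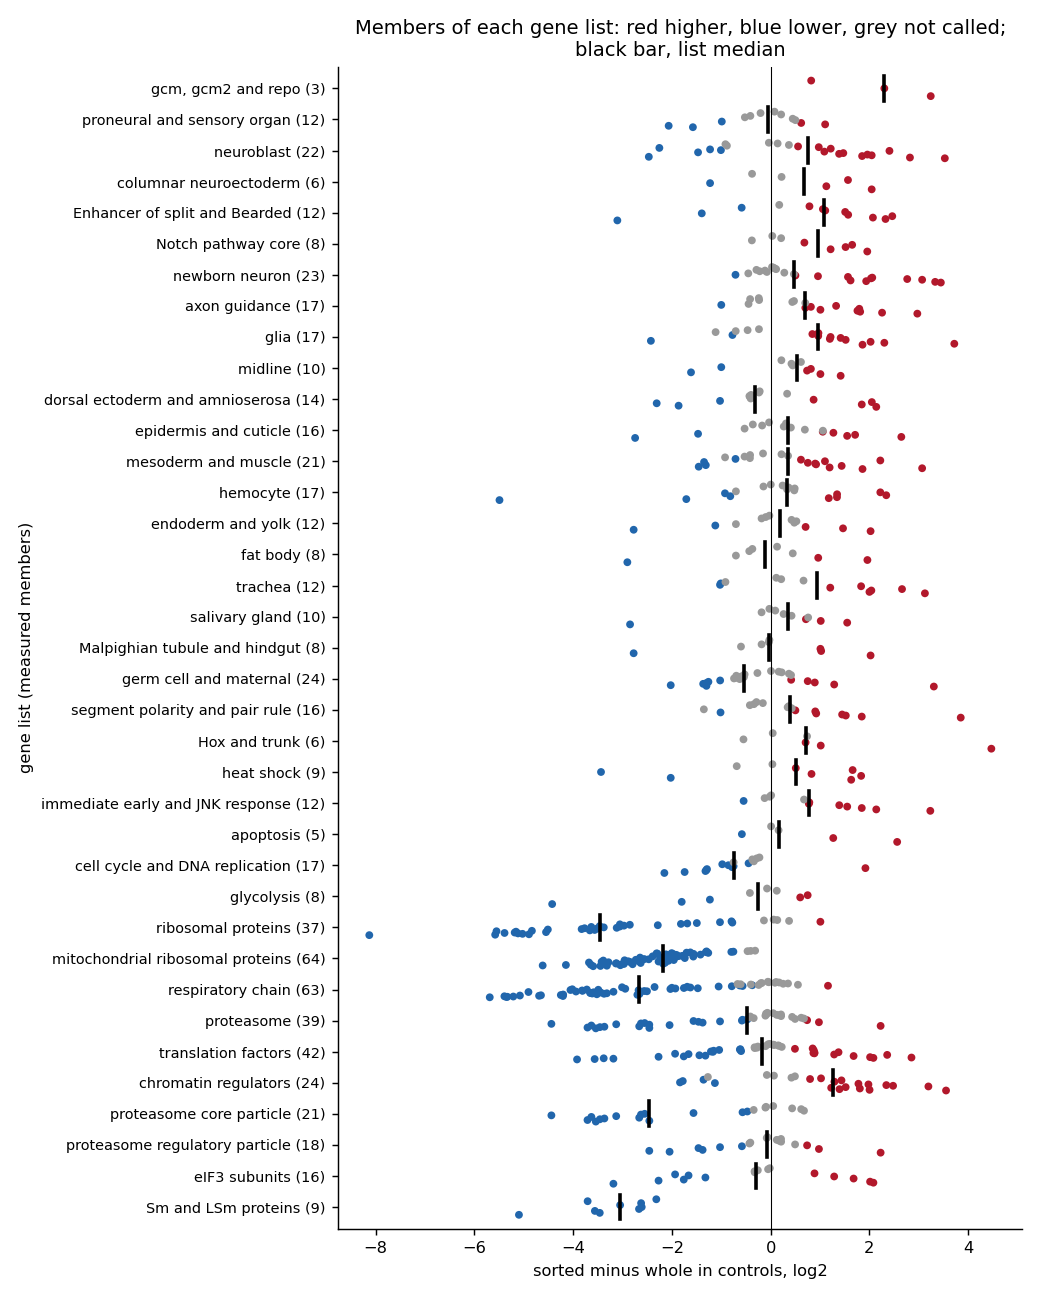
Change (sorted minus whole, log2) of every measured member of each gene list, with the number measured in brackets; red called higher, blue called lower, grey not called, black bars list medians. Medians of most neural lists lie to the right of 0, as do several others, at 0.94 for trachea and 1.26 for chromatin regulators. Those of ribosomal, mitochondrial and Sm protein genes lie far to the left, at -3.46 for the ribosomal proteins.

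Patterning genes of the trunk included some of the largest increases. The zinc finger gene tsh, which specifies the trunk, read 11.82, 11.87, 11.58 and 12.03 in the sorted cells and 7.78, 7.58 and 6.69 in whole embryos. Its sorted arrays lay well above, with a rise of 4.47 ± 0.30, or 22.2-fold (adjusted p = 7.3e-09, limma). The Wnt inhibitor nkd rose by 3.85, the pair-rule genes ftz and opa by 1.52 and 1.45, and the forkhead gene slp2 by 1.85, while en changed by -1.01. A dimmer probe set of nkd changed by 0.54 and was not called. The call of opa was lost on the deposited values (0.74, adjusted p = 0.095, limma) and that of en with the array labelled whole control 3 (0.098). Of 16 segment polarity and pair-rule genes 7 rose and 1 fell (median 0.40, and -0.20 on the deposited values).

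Genes for ribosomal, respiratory chain and Sm proteins were mostly lower in the sorted cells. Of 37 cytosolic ribosomal protein genes 32 fell and 1 rose, with a median of -3.46. Of 64 mitochondrial ribosomal protein genes 61 fell and 3 were not called, with a median of -2.19. Of 63 respiratory chain genes 48 fell and 1 rose (median -2.68), and all 9 Sm and LSm genes, which encode the core of the spliceosomal particles, fell (median -3.05). All 4 medians kept this direction under each scaling and with the array labelled whole control 3 included, and the one nearest to 0 was -1.63, for mitochondrial ribosomal proteins with that array. The genes of these lists were short, with median lengths of 1099, 909.5, 1100 and 786 bases, against 2385 for all genes. Relative to genes of the same class of length and level, a scale chosen after seeing the data, the medians were -1.77, -1.16, -1.07 and -1.04.

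The single largest change of any probe set was that of RpL29, a protein of the large ribosomal subunit. Its levels were 4.27, 4.33, 4.19 and 4.18 in the sorted cells, close to the level of 4 that an intensity of 0 gives, and 12.33, 12.24 and 12.54 in whole embryos. No array was intermediate, and the change was -8.13 ± 0.13 (adjusted p = 5.8e-16, limma). RpS21 changed by -5.58, RpL40 by -5.55 and RpLP2 by -5.39. In contrast RpL3 read 12.98, 13.12, 13.02 and 12.99 against 13.07, 12.99 and 12.85. The groups overlapped and its change was 0.06 ± 0.18, which was not called (-0.16 with equal medians, and -0.74 and called on the deposited values).

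In eIF3 and in the regulatory particle of the proteasome, subunits of one complex moved in opposite directions. In eIF3, the scaffold that brings mRNA to the ribosome, 5 of 16 genes rose and 6 fell. The core subunit gene eIF3b read 12.26, 12.15, 12.05 and 12.24 against 10.06, 10.20 and 10.02 and rose by 2.08 ± 0.18 (adjusted p = 1.5e-07, limma). The small subunit gene eIF3k read 7.31, 6.76, 6.96 and 7.83 against 10.25, 10.39 and 10.56 and changed by -3.19 ± 0.22 (adjusted p = 7.9e-09, limma). Both were separated in every array. The others that rose were eIF3c (2.02), eIF3a (1.68), eIF3l (1.29) and eIF3d1 (0.89), of which eIF3l and eIF3d1 had changes of -0.10 and -0.07 on the deposited values and eIF3c one of 0.70, none called. Those that fell were eIF3h (-2.27), eIF3j (-1.94), eIF3g1 (-1.76), eIF3f1 (-1.66) and eIF3m (-1.32). With the array labelled whole control 3, eIF3d1 (adjusted p = 0.076, limma) and eIF3f1 (0.0505) were not called, and with equal medians eIF3l was not called. The risen genes span 2279 to 4098 bases of the genome and the fallen genes 919 to 1969 bases.

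In the proteasome the 21 genes of the catalytic core particle held 14 that fell and 7 that were not called (median -2.46), with Prosbeta5 at -4.44 and Prosbeta4 at -3.71. In the 18 genes of the regulatory particle 3 rose and 6 fell (median -0.07, and -0.65 on the deposited values). There Rpn6 read 12.35, 11.43, 11.89 and 12.05 against 9.73, 9.69 and 9.68 and rose by 2.23, while Rpn12 changed by -2.46. The split into core and regulatory particle, like the eIF3 and Sm lists, was made after the values were seen.

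Chromatin regulators were mostly higher. Of 24 chromatin regulators 15 rose and 4 fell, with a median of 1.26 (0.62 on the deposited values). Over all genes 24.9% were called higher and 23.2% lower. The chromatin genes were long, with a median length of 10209.5 bases, against 2385 for all genes. Relative to genes of the same class of length and level, a scale chosen after seeing the data, their median was 0.34. The Trithorax methyltransferase trx read 9.46, 9.12, 9.90 and 9.42 in the sorted cells and 5.95, 6.51 and 5.30 in whole embryos. It did not overlap and rose by 3.55 ± 0.27 (adjusted p = 2.7e-08, limma). The remodeller subunit E(bx) rose by 3.20, the remodellers kis and Mi-2 by 2.48 and 2.0, and Pc by 1.81. The insulator protein gene su(Hw) changed by -1.84, ash2 by -1.78 and Su(z)12 by -1.36, and ash2 was not called with the array labelled whole control 3 (adjusted p = 0.14, limma).

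Across 10799 genes, the change was correlated with the length of the gene in the release 6 annotation (Spearman's rank correlation 0.36, a description across genes, which are not independent replicates). At a mean level of 8 or more the correlation was 0.60 over 1420 genes. Genes were divided by length into 10 classes of equal size. In the class of the shortest genes (177 to 874 bases) 79.1% of the 43 genes at that level were called lower and 9.3% higher. In that of the longest (over 15888 bases) 6.25% of 160 such genes were called lower and 74.4% higher. The genes called higher had a median length of 4524 bases, those called lower 1602 and the rest 2284. The Enhancer of split and Bearded genes were short, with a median length of 970.5 bases, and 8 of 12 rose. Taken relative to genes of the same class of length and level, a scale chosen after seeing the data, their median change was 3.61, against 1.08 before. The reference was the median of each class, to which the list members themselves contributed. At a level of 8 or more it was -2.67 and -2.52 in the 2 shortest classes, of 43 and 48 genes. A relative value there therefore also holds the fall of other short genes. On that same relative scale the medians were 1.88 for gcm, gcm2 and repo, 0.43 for trachea, 0.12 for newborn neurons, -0.05 for glia, -0.11 for neuroblasts, and -1.77 for ribosomal proteins.

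**Figure D5:**
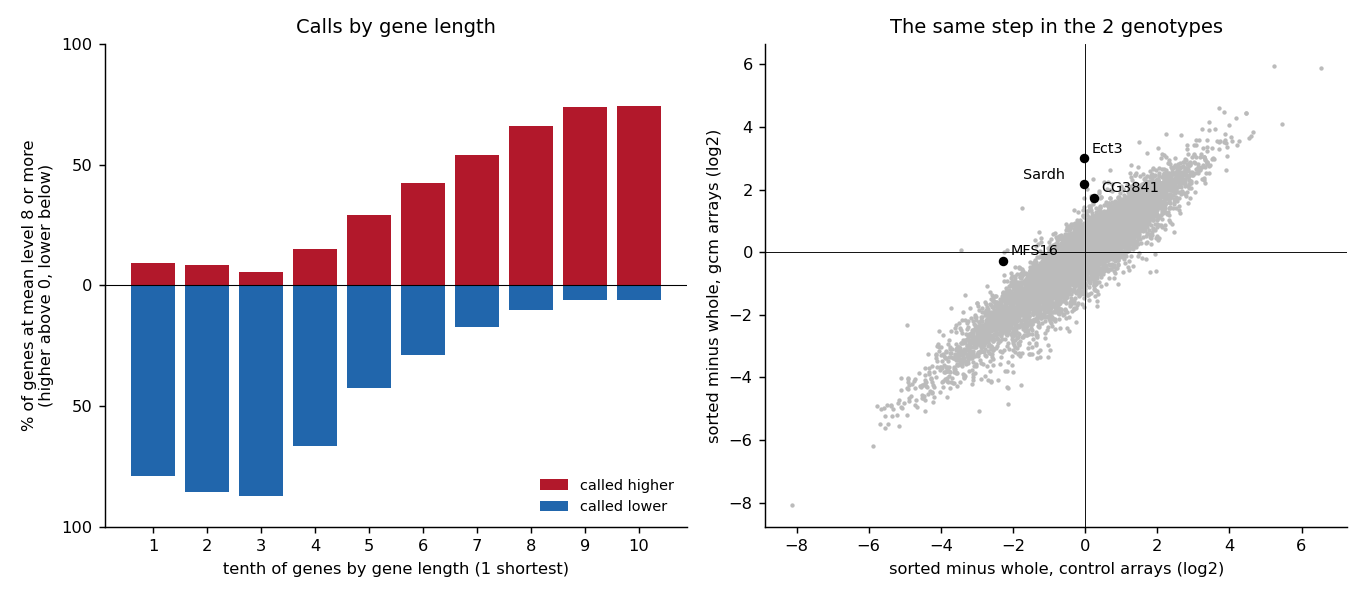
Left, share of genes with a mean level of 8 or more called higher (above 0) or lower (below 0) in sorted control cells, by class of gene length (10 classes of equal size); the shortest class has 79.1% lower and the longest 74.4% higher. Right, change from whole to sorted in the gcm arrays against that in the control arrays for 13966 probe sets, with the 4 genes marked whose changes differed.

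Genes of the response to stress and injury were partly higher. Of 12 immediate early and JNK pathway genes 7 rose and 1 fell, with a median of 0.78 (0.35 on the deposited values). The JNK phosphatase puc, itself a target of the pathway, read 9.85, 9.80, 9.997 and 9.85 in the sorted cells and 6.71, 6.80 and 6.41 in whole embryos. The sorted arrays agreed within 0.08 (SD) and puc rose by 3.24 ± 0.17 (adjusted p = 4.3e-10, limma). The Jun gene Jra rose by 1.55 and hep, the kinase upstream of JNK, by 1.39. The member called lower was the gene of JNK itself, at 8.83 in the sorted cells against 9.38 in whole embryos. Its change was -0.55 (adjusted p = 0.012, limma). Neither sr, Atf3 nor Hr38, immediate early genes, was called, and their changes were between -0.12 and 0.01. Of 5 cell death genes 2 rose and 1 fell, with a median of 0.16 (-0.03 with equal medians and -0.54 on the deposited values). Those that rose were grim (2.56) and skl (1.27, and 0.66 and not called on the deposited values).

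Of 9 heat shock genes 5 rose and 2 fell (median 0.51, and -0.09 on the deposited values). The cochaperone DnaJ-1 rose by 1.83 and the factor Hsf by 1.63, while the small heat shock protein gene Hsp26 changed by -2.02. Hsp68 was at 6.18, 7.14, 9.0 and 8.21 in the sorted cells against 5.97, 5.93 and 6.01. Its call at a rise of 1.66 was lost without sorted control 3 (adjusted p = 0.061, limma), without sorted control 4 (0.050), with the array labelled whole control 3 (0.45) and on the deposited values (0.13). Neither DnaJ-1 (adjusted p = 0.14, limma) nor Hsc70-4 (0.25) was called with that array. The constitutive chaperone Hsc70-4 read 6.42, 9.46, 5.61 and 11.69 in the sorted cells, a spread wider than that of most genes, and 11.78, 11.84 and 11.58 in whole embryos. The groups overlapped, and its change of -3.44 ± 0.95 was called (adjusted p = 0.007, limma). In the gcm arrays Hsc70-4 changed by 0.06, and the difference between the changes was not called (adjusted p = 0.35, limma).

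Cell cycle genes were mostly lower, with 10 of 17 falling and 1 rising (median -0.75, and -1.38 on the deposited values). The replication clamp PCNA read 8.49, 8.38, 8.18 and 8.49 in the sorted cells and 10.47, 10.48 and 10.66 in whole embryos. Its groups were distinct, with a change of -2.15 ± 0.15 (adjusted p = 1.2e-08, limma). The anaphase activator fzy changed by -1.74, Mcm6 by -1.32 and CycB by -1.30, and the transcription factor E2f1 rose by 1.92. The call of Mcm6 was lost with the array labelled whole control 3 (adjusted p = 0.14, limma). Among 8 glycolytic genes 3 fell and 2 rose, with the aldolase Ald1 at -4.43. Of all genes 23.2% fell and 24.9% rose.

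Over all genes, the largest rises among probe sets with 1 gene symbol were those of Muc12Ea (5.22), a mucin-related gene, of spen (4.65), a nuclear RNA-binding repressor, and of stan (4.59), a seven-pass cadherin of planar polarity. FBXO11 and the translation regulator NAT1 each rose by 3.89. A pair of probe sets of sov rose by 4.54 and 4.22, and a further one of the same gene had a change of 0.02. The largest falls after RpL29 were those of Drsl5 (-5.87), of Nop10 (-5.77), a box H/ACA particle protein, of ATPsynF (-5.69), a subunit of the ATP synthase, and of CG9344 (-5.65). The ribosomal protein genes RpS21 and RpL40 and the splicing factor gene Phf5a (-5.54) came next. Of 1209 genes with several probe sets, 54 had probe sets called in opposite directions, including gro, ChAT and CG3894. For other named genes a dimmer probe set was not called, among them SoxN (-0.10), kay (-0.46), serp (0.13), E(bx) (0.79) and mira (-0.46).

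The same step in the gcm embryos, from whole embryos to sorted cells, used other arrays but the same normalisation and estimate of spread. It called 6367 probe sets (45.6%), 3445 (24.7%) higher and 2922 (20.9%) lower. Of the probe sets called higher in controls 77.7% were called higher there, and of those called lower 78.7% were called lower. The reverse shares were 78.6% and 80.7%. The sign was the same for 97.1% of the control calls. Changes in gcm arrays were 3.32 for sna, 2.73 for nerfin-1, 2.49 for E(spl)mbeta-HLH, 4.45 for tsh, 2.72 for puc, -4.88 for Nplp2 and -8.07 for RpL29.

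A direct test of the difference between the changes called 4 of 13966 probe sets (0.0286%), all with the more positive change in gcm embryos, and 1468 at an unadjusted p under 0.05. Ect3, a beta-galactosidase, read 8.74, 8.19, 8.26 and 7.68 in sorted and 8.16, 7.93 and 8.63 in whole controls, which overlapped, with a change of -0.02. In the gcm arrays Ect3 changed by 3.0, and the difference was -3.02 ± 0.32 (adjusted p = 0.0011, limma). MFS16, a predicted transporter, changed by -2.27 in controls and by -0.28 in gcm embryos. Sardh, a mitochondrial dehydrogenase, and CG3841 changed by -0.02 and 0.24 in controls and by 2.17 and 1.74 in gcm embryos. Both were near background in controls. Sardh had means of 4.87 in sorted and 4.88 in whole controls, and CG3841 had 4.39 and 4.15. Their small control changes may therefore reflect undetected transcripts. This count moved between 1 and 64 with the setting and with single arrays left out, and was 64 without whole gcm 1.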

How the data were processed

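RNA of sorted cells and whole embryos was hybridised to 1-colour Affymetrix Drosophila arrays. The intensity values per probe set were used as deposited by the authors. How they were computed from the scans, and the RNA amplification, are not given in the sources used here. Of 14010 probe sets, 44 were controls and 13966 were tested; 12443 carried 1 gene symbol, 327 several and 1196 none. Gene names came from the platform annotation, and 12394 probe sets were matched to release 6 for current symbols and gene lengths.

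Intensities were quantile-normalised over the 14 arrays in the fit and transformed as log2(intensity + 16). One mean per group was fitted with limma 3.58.1 in R 4.3.3 (eBayes with intensity trend), with Benjamini-Hochberg adjustment over all tested probe sets. A gene is represented by its probe set of highest mean level. The test was tried on simulated data. The members and gene lists were chosen with earlier results of these data known. Genes were named by rule: gcm, gcm2 and repo; the 15 largest rises and falls without overlap; in each list, at most 4 genes chosen by lowest p, with the largest against the median; and the 6 smallest p for the difference. Not every gene picked by this rule is named in the text. Some of the largest rises and falls, some members against their list median and some genes for the difference were left out. Other named genes were chosen after their values were seen. Alternatives covered pseudocount, scaling, filter, weights, block and arrays left out. The number of arrays limits the precision.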

Additional observations from a re-analysis of the deposited data

Results flagged for a closer look

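The array labelled whole control 3 lay far from the other 3 whole control arrays on the scale over all 15 arrays. Its mean correlation with them was 0.696, where the other whole control arrays had 0.956 to 0.968. It read 13.10 for gcm (8.07 to 8.66 on the others), 10.77 for repo (6.14 to 6.32) and 4.23 for RpL29 (12.19 to 12.49).

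Of 157 named genes, 8 had a sorted control array that stood apart from the other 3 by Dixon's criterion, which chance meets in about 1 in 20 groups. These were CycB on sorted control 1 (9.96, others 9.85 to 9.86), eIF3l on sorted control 1 (11.93, others 12.20 to 12.24) and Sardh on sorted control 2 (5.27, others 4.71 to 4.75). The others were tud on sorted control 2 (9.85, others 10.22 to 10.28), trio on sorted control 3 (9.17, others 8.84 to 8.88), Kr on sorted control 3 (7.83, others 8.15 to 8.16), cas on sorted control 4 (5.94, others 7.51 to 7.76) and Rpn12 on sorted control 4 (6.13, others 6.79 to 6.87).

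The change from whole embryos to sorted cells differed between control and gcm embryos for 4 genes, tested as an interaction with limma. The differences, control minus gcm, were -3.02 for Ect3 (adjusted p = 0.0011, limma), -2.19 for Sardh (0.035), -1.99 for MFS16 (0.0033) and -1.50 for CG3841 (0.035).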

How the results depend on the processing

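In controls 6478 probe sets were called. The 9 other settings that kept these arrays gave 5427 to 6797, and leaving out 1 array, gcm arrays included, gave 5635 to 6560. The 5427 came from the 8379 probe sets left without the dimmest 40%. Of the 6478, 4771 were also called on the deposited values and 5868 with equal medians, in either direction. With the array labelled whole control 3 the count was 3647, of which 3628 were among the 6478. The gcm count of 6367 ranged from 5152 with that array to 7332 with array weights. The count of differing changes was 4. It was 2 with a pseudocount of 1, 7 with a pseudocount of 64, 1 with equal medians, 2 without the dimmest 40% of probe sets, 49 with array weights, 1 with the array labelled whole control 3 and 2 to 64 with 1 array left out. The 64 came without whole gcm 1, and 15 and 14 without whole control 2 and sorted control 4. For these the cause was not tested.

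For the 157 named genes there were 3756 pairs of gene and setting. In 3633 the direction and the side of the threshold were kept, in 79 the call was lost, in 14 it was gained, and in 36 the sign turned, of which 5 are also among the lost and 1 among the gained calls. The turned changes on the deposited values were Dr -0.40, Ocho -0.054, RpL3 -0.74, eIF3d1 -0.0715, eIF3l -0.10, pdm2 -0.056, sc -0.086 and sr -0.22. With equal medians they were Atf3 0.10, Gad1 0.030, RpL3 -0.16 and Sardh 0.16, and with array weights Atf3 0.16, Ect3 0.19, Hr38 0.0525 and sr -0.10. The change of sr was -0.012 with a pseudocount of 1, and with the array labelled whole control 3 sr was at -0.31 and Atf3 at 0.20. With 1 array left out Atf3 ranged from -0.30 to 0.28, Ect3 from -0.20 to 0.17, Hr38 from -0.26 to 0.13, Kr from -0.30 to 0.13, Sardh from -0.15 to 0.032 and sr from -0.22 to 0.17. Of the genes not called, VGlut, ind, vas, pgc and cas were called lower on the deposited values, and CG3841 higher with a pseudocount of 1 (1.11).

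List medians turned on the deposited values for midline (-0.012), mesoderm (-0.10), hemocyte (-0.29), endoderm (-0.24), salivary gland (-0.32), segment polarity (-0.20), heat shock (-0.093) and apoptosis (-0.54). The apoptosis median was -0.026 with equal medians, the proneural median 0.15 without the dimmest 40% of probe sets, and the fat body median 0 with the array labelled whole control 3. With 1 array left out the proneural median ranged from -0.11 to 0.014 and that of Malpighian tubule and hindgut from -0.31 to 0.20.

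Replicate numbers were shared by sorted and whole arrays, but the deviations of same-numbered arrays correlated at only -0.03, 0.11 and 0.12, so they were not treated as pairs. With the replicate number as a block 6431 probe sets were called in controls and 2 for the difference. The changes of sr and Kr were then -0.064 and 0.13, and the medians of fat body and of Malpighian tubule and hindgut 0.0072 and 0.12. The block changed no other direction of a named gene or list, and of the calls of named genes only that of cas, gained at -0.90 (adjusted p = 0.017, limma).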
